A study of Mus musculus with 8 samples.

Results

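The genes that surround the 3 floxed salt-inducible kinase (SIK) genes on their chromosomes were compared between kidneys of control mice and of SIK mutant mice. The set was defined by position and by level, with some genes left out by name. It comprised protein-coding genes of GENCODE M21 (mouse build GRCm38) with a mean of at least 10 expected counts over the kidneys. They start in an interval of 11 Mb around *Sik2* and *Sik3* on chromosome 9 or of 5.7 Mb around *Sik1* on chromosome 17. Of 243 protein-coding genes in these intervals, 15 were left out by name, namely the 3 *Sik* genes themselves, *Fxyd2*, *Cdkn1a* and genes whose symbols start with Cyp, Atp5 or Sdh, and 76 lay under the count minimum. This left 152 flanking genes, 89 on chromosome 9 (starts from 43108650 to 53771538) and 63 on chromosome 17 (28142141 to 33685692), of 55401 genes in the files. Just inside the count minimum were *4930539E08Rik* (mean 11.1 counts) and *Rasal3* (11.6), and just outside were *Trim29* (9.25) and *Rsph1* (9.12).

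RNA-Seq had been performed on whole kidneys of 8 mice. The 4 controls (Ctrl) carried loxP-flanked alleles of *Sik1*, *Sik2* and *Sik3* and no Cre recombinase, and the 4 mutants (KO) carried the floxed alleles with Six2-Cre, a driver active in nephron progenitors and therefore in the tubule cells derived from them, but not in stromal or blood-derived cells. Both groups thus carried engineered chromosomes 9 and 17. The labels give f/f for each *Sik* gene in both groups, while the study's text describes its mutants as heterozygous for floxed *Sik1*, so the *Sik1* dose in the KO group is uncertain. The labels give no age, sex, litter or batch, and nothing in them says more of how the mice of a group were related than that they are separate samples.

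A floxed allele is made in embryonic stem cells and is then bred onto other backgrounds, and the DNA around it travels with it. Neighbours of an engineered locus can therefore differ between groups of mice because of linked sequence variants, called passenger or flanking-gene effects, because a promoter or enhancer was cut or brought closer by the deletion, or because transcripts read through a changed gene. Such effects are best known for the genes nearest the engineered site. Both groups here carried floxed alleles, though the *Sik1* dose of the KO group is uncertain. Whether linked variants differed between the groups was not tested. The intervals hold unrelated genes: on chromosome 9 the *Apoa4*-*Apoc3* apolipoprotein cluster, *Kmt2a* and *Atm*, and on chromosome 17 p38 kinase genes, *Cbs*, *Notch3* and a cluster of zinc-finger genes.

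The targeted genes themselves behaved unequally. *Sik3* was 58.6, 66.5, 65.7 and 61.0 CPM (reads per gene relative to library size, after TMM scaling) in the 4 Ctrl kidneys and 41.4, 39.7, 43.1 and 34 CPM in the 4 KO kidneys. These groups did not overlap, and the edgeR estimate for KO over Ctrl was a log2 fold change of -0.67 ± 0.09 (SE; FDR 0.0697 over all genes tested). *Sik2* was 7.97 to 9.95 CPM in Ctrl and 4.50 to 9.30 in KO (-0.44 ± 0.21, FDR 0.794), with overlap. *Sik1* was 36.8 to 43.1 CPM in Ctrl and 43.4 to 54.1 in KO, higher in every KO kidney (0.31 ± 0.09, FDR 0.601). These are whole-gene counts, which include transcripts that lack the deleted exons and RNA of cells in which Six2-Cre is inactive, so they check the labels only in part.

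Depth was even, at 10179648 to 10925100 expected counts per kidney. Ctrl 3 and Ctrl 4 held at most 0.175 CPM summed over 4 Y-linked genes, against 76.8 to 94.9 CPM in the other 6 kidneys, so that the 4 KO kidneys were compared with 2 kidneys with and 2 without Y-linked reads. Summed adipocyte markers (7 genes, 6 of them without a count in some kidney) were 22.3 to 219 CPM in Ctrl and 166 to 262 in KO, and summed smooth muscle markers (*Acta2* and *Myh11*) were 17.1 to 40.1 CPM in Ctrl and 19.1 to 70.3 in KO. Markers of the proximal tubule, the main cell type of kidney cortex, were abundant in every kidney, at a sum of 8240 and 8820 CPM in Ctrl 1 and Ctrl 2, 6240 and 6960 in Ctrl 3 and Ctrl 4 and 5750 to 6920 in KO. In the 6 kidneys that hold Y-linked reads, the groups therefore did not overlap in proximal tubule markers, nor in adipocyte markers (22.3 and 29.9 CPM in Ctrl 1 and Ctrl 2). The collecting duct marker *Aqp2* did not overlap there either, at 258 and 163 CPM in Ctrl 1 and Ctrl 2 and 277 to 563 in KO.

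None of the 152 flanking genes differed between genotypes at an FDR under 0.05 by edgeR's quasi-likelihood test (0.0% of the 14326 genes tested passed, and the lowest FDR among flanking genes was 0.702). DESeq2 on the same 8 kidneys also called 0 of them, where it called 0.387% of 18344 genes. At an unadjusted p under 0.05, 4 flanking genes (2.63%) passed in edgeR, against 6.36% of all genes tested and 7.93% of the 1198 other genes of chromosomes 9 and 17 that could be tested. All 4 were higher in KO, namely *Fkbp5*, *Pi16*, *Cadm1* and *Atm* (background for this direction, 2.76%), and none was lower (background 3.59%). DESeq2 likewise gave 4 flanking genes higher and 0 lower at that unadjusted level. Its background was 3.89% in either direction, over 25223 genes that include those under edgeR's filter. For limma-voom the counts were 3 and 0, with no share over all genes given.

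The differences were small in either direction. Of the flanking genes, 81 had a positive and 71 a negative estimate. The median log2 fold change was 0.004 over all 152, 0.001 on chromosome 9 and 0.013 on chromosome 17, beside -0.013 for the other genes of these chromosomes. The median size of the log2 fold change, its sign ignored, was 0.10 in flanking genes and 0.12 in the others. The estimates ran from -0.49 for *Layn* to 1.01 for *Pi16*, and 5 genes (3.29%; background 5.28%) lay past a 1.5-fold difference, namely *Pi16*, *Atm*, *Fkbp5*, *Plet1* and *Cadm1*.

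The intervals of these estimates say what the 8 kidneys could have shown as whole tissue, which includes cells in which Six2-Cre is inactive. For 136 of the 152 flanking genes (89.5%) the 95% interval of the log2 fold change lay within a 2-fold difference either way, and for 100 (65.8%) within 1.5-fold. The corresponding shares were 87.1% and 66.4% for the other genes of chromosomes 9 and 17. The spread among kidneys of a group was close as well, with a median SD of log2 CPM around the group means of 0.19 in flanking genes and 0.20 in the others. Groups did not overlap in CPM for 3 flanking genes (1.97%; background 4.03%, other genes of these chromosomes 5.01%). They were *Pts*, lower in KO (background for this direction 2.39%), and *Fdxacb1* and *Atm*, higher in KO (background 1.65%).

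**Figure D1:**
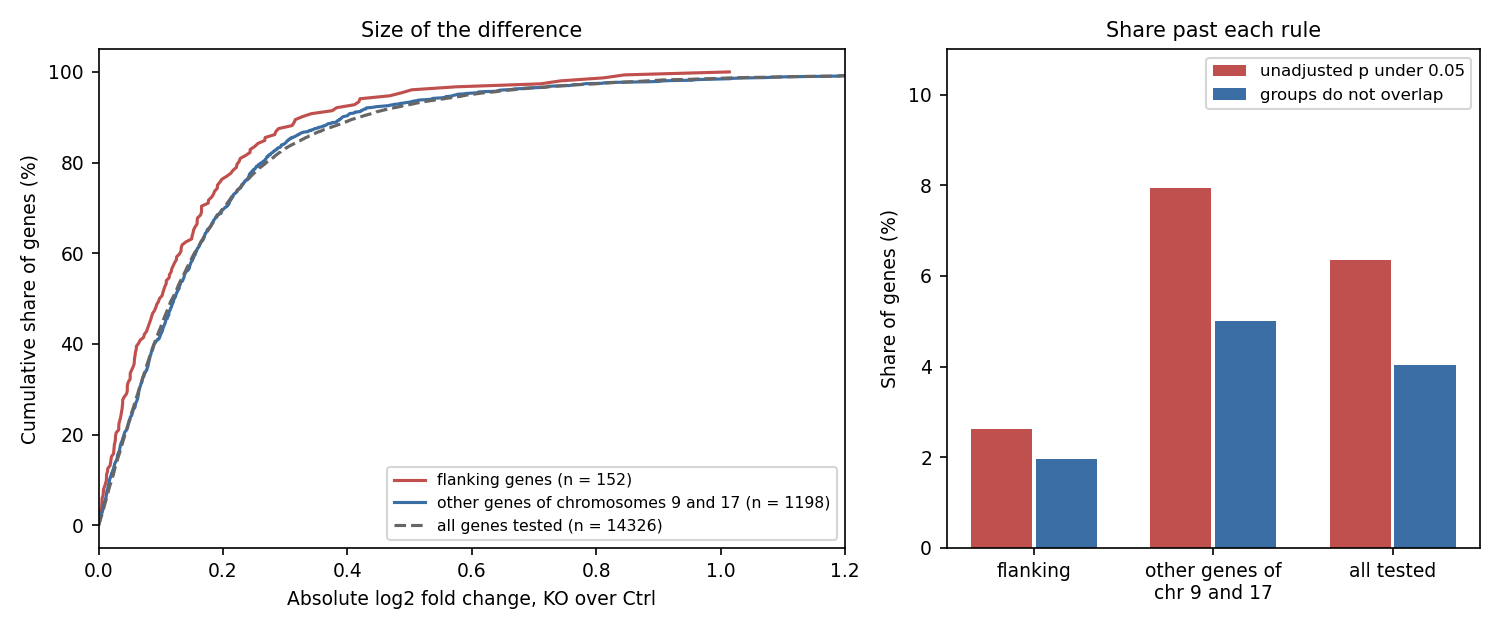
Left, cumulative share of genes (%) against the absolute log2 fold change of KO over Ctrl for flanking genes, for the other genes of chromosomes 9 and 17 and for all genes tested. Right, bars from 0 with the share of each set at an unadjusted p under 0.05 and with groups that do not overlap. The curve of the flanking genes runs slightly to the left of the other curves, with a median of 0.10 against 0.12, and its bars stand at 2.63% and 1.97%.

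Distance from the floxed genes was examined next, with all tested genes of both chromosomes binned by the distance of their start (the lower coordinate on either strand) to that of the nearest *Sik* gene. Within 0.5 Mb lay 42 flanking genes, 22 with a positive and 20 with a negative estimate, and 0 reached an unadjusted p under 0.05. Their median absolute log2 fold change was 0.089. Between 0.5 and 1 Mb lay 12 genes, again with 0 at that level and a median absolute value of 0.101. From 1 to 2 Mb, 1 of 62 genes passed (*Cadm1*), and from 2 to 4 Mb 8 of 139 (5.76%), a bin in which 42 were flanking genes. Beyond 4 Mb 90 of 1095 genes passed (8.22%), with a median absolute log2 fold change of 0.123. Taken by locus, the median absolute difference within 0.5 Mb was 0.058 around *Sik1*, 0.129 around *Sik2* and 0.132 around *Sik3*, beside 0.129, 0.118 and 0.110 beyond 4 Mb, so that it was lower near *Sik1* alone. The largest single value within 0.5 Mb was 0.74, for *Plet1*. On the 6 kidneys with Y-linked reads, described below, 3 of the 42 nearest genes (7.14%) passed that unadjusted level, beside 11.1% of all genes tested there and 13.3% of the genes beyond 4 Mb. The bins between held 16.7% (2 of 12 genes), 11.3% and 13.7%. By locus, the shares within 0.5 Mb and beyond 4 Mb were 7.69% and 13.1% for *Sik1* and 5.56% and 15.2% for *Sik2*. Around *Sik3* they were 9.09% and 9.04%, with 40.0% of 5 genes at 0.5 to 1 Mb and 18.8% of 32 genes at 1 to 2 Mb.

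**Figure D2:**
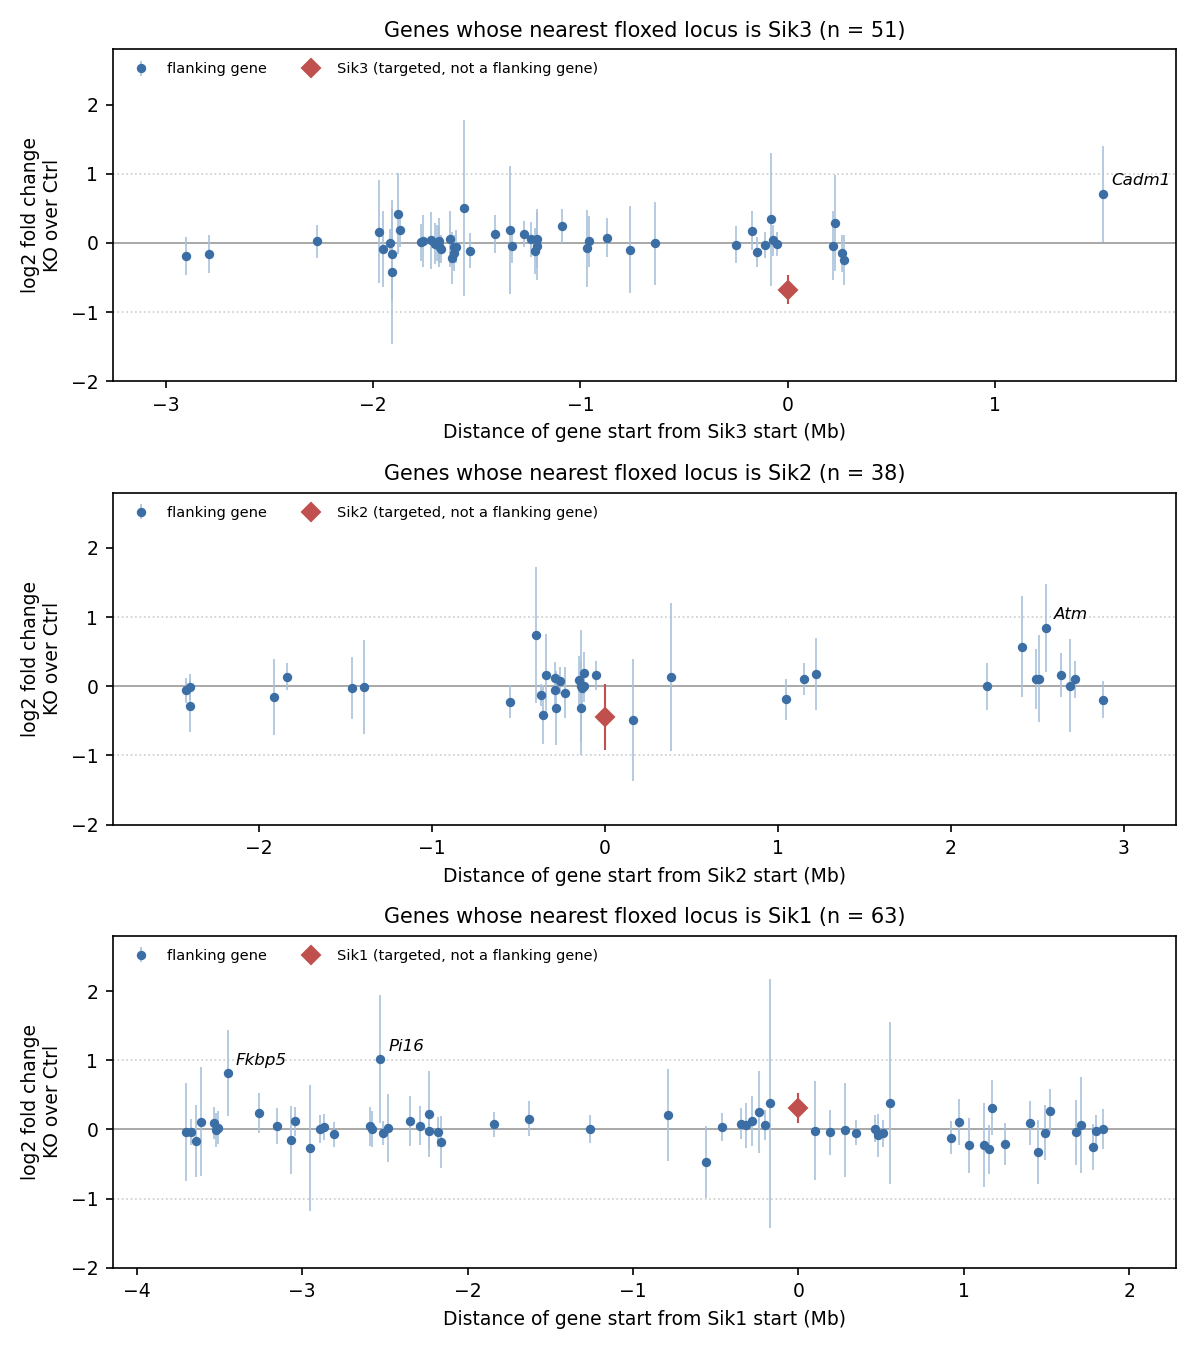
log2 fold change of KO over Ctrl with its 95% interval for each flanking gene, against the distance in Mb of its start from the start of its nearest *Sik* gene. The 3 panels are for *Sik3*, *Sik2* and *Sik1*, diamonds mark the targeted gene, dotted lines mark a 2-fold difference, and the 4 labelled genes are those with an unadjusted p under 0.05, all more than 1 Mb from the targeted gene.

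Near *Sik3* the 3 closest flanking genes on the lower-coordinate side were *Tagln*, *Sidt2* and *Pafah1b2*, and those on the other side were *Apoc3*, *Apoa4* and *Zpr1*. *Pafah1b2*, a catalytic subunit of the enzyme that inactivates platelet-activating factor, is transcribed away from *Sik3* from a start next to that of *Sik3* (chr9:45962859-46012690, minus strand) and was 44.1, 48.1, 43.1 and 45.1 CPM in Ctrl and 48.5, 43.2, 41.9 and 44.5 in KO. The groups overlapped almost fully, and the log2 fold change was -0.02 with a 95% interval of -0.19 to 0.16. *Sidt2*, a lysosomal membrane protein, was 115 to 143 CPM in Ctrl and 126 to 145 in KO (0.04 ± 0.10). *Tagln*, the smooth muscle protein transgelin, was 11.5, 32.1, 16.5 and 36.5 CPM in Ctrl and 55.4, 23.6, 17.1 and 26.2 in KO. Its widely spread groups overlapped (0.34 ± 0.43), and its highest kidney, KO 1, also had the highest sum of *Acta2* and *Myh11*, 70.3 CPM. In whole tissue such as this, fewer cells of a type and less RNA per cell cannot be told apart.

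The apolipoprotein genes beyond *Sik3* were expressed at a low level in kidney. *Apoc3*, which slows the clearance of triglyceride-rich lipoproteins, was 8.05 to 9.95 CPM in Ctrl and 6.0 to 12.5 in KO (-0.04 ± 0.22). *Apoa4*, an apolipoprotein of chylomicrons, was 16.5, 13.9, 8.01 and 5.43 CPM in Ctrl and 14.3, 14.8, 9.98 and 14.1 in KO (0.28 ± 0.31). Its low values were in Ctrl 3 and Ctrl 4, the kidneys without Y-linked reads, and on the other 6 kidneys the estimate was -0.18 ± 0.18. *Zpr1*, a zinc-finger protein that binds the survival motor neuron complex, was 23.3 to 30.3 CPM in Ctrl and 20.2 to 28 in KO (-0.15 ± 0.12).

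Near *Sik2* the closest genes were *Fdxacb1*, *Alg9* and *Ppp2r1b* on the lower-coordinate side and *Layn*, *Colca2* and *Fdx1* on the other. *Ppp2r1b*, a scaffold subunit of protein phosphatase 2A, overlaps the end of *Sik2* on the opposite strand (chr9:50845301-50894229, plus strand) and was 21.3, 24.4, 22.8 and 23.9 CPM in Ctrl and 22.4, 26.8, 27.7 and 26.0 in KO. Of the KO kidneys 3 lay above every Ctrl kidney, and the log2 fold change was 0.16 ± 0.09 (95% interval -0.06 to 0.37, unadjusted p = 0.131, the lowest among the neighbours). Whether the authors counted with strand is not given in the sources used here, so reads of the overlapping ends cannot be told apart. *Fdxacb1*, of the ferredoxin-fold anticodon-binding family, was 5.28, 5.04, 5.20 and 4.73 CPM in Ctrl and 5.65, 6.15, 5.81 and 5.48 in KO. It was the only neighbour whose groups did not overlap, by a 1.14-fold difference (0.19 ± 0.13, two-sided exact permutation p = 0.0286, the smallest possible with 4 against 4, and FDR 0.863).

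*Alg9*, an endoplasmic reticulum mannosyltransferase of N-glycan assembly, was 12.8 to 13.9 CPM in Ctrl and 11.8 to 15.1 in KO (0.005 ± 0.106). *Fdx1*, the mitochondrial ferredoxin that passes electrons to mitochondrial cytochrome P450 enzymes such as those of vitamin D and steroid metabolism, was 55.6, 49.2, 40.9 and 41.3 CPM in Ctrl and 44.0, 39.7, 33.4 and 46.6 in KO. The groups overlapped (-0.19 ± 0.13, 95% interval -0.49 to 0.11), and on the 6 kidneys the estimate was -0.35 ± 0.14 (unadjusted p = 0.0332, FDR 0.407). *Layn*, a hyaluronan receptor, and *Colca2* were near the detection limit, with 6 to 27 and 6 to 22 counts per kidney, and their intervals reached past 2-fold (*Layn* -1.37 to 0.40, *Colca2* -0.93 to 1.2).

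Near *Sik1* the closest genes were *Cbs*, *U2af1* and *Cryaa* on the lower-coordinate side and *Hsf2bp*, *Rrp1b* and *Notch3* on the other. *Cbs*, cystathionine beta-synthase of the transsulfuration pathway, was 257, 217, 113 and 109 CPM in Ctrl and 196, 211, 198 and 226 in KO (0.26 ± 0.26). Ctrl 3 and Ctrl 4 lay far below the 6 kidneys with Y-linked reads. On those 6 the estimate was -0.18 ± 0.10. *Hsf2bp*, a germline recombination factor with transcripts in kidney here, was 15.3, 13.5, 5.90 and 5.69 CPM in Ctrl and 11.3, 10.6, 8.52 and 9.24 in KO. Every KO kidney lay between the 2 pairs of Ctrl kidneys, so that the estimate was -0.02 ± 0.32 on 8 kidneys and -0.53 ± 0.16 on 6 (unadjusted p = 0.00899, FDR 0.295). *Cryaa*, the lens crystallin alpha A, was 5.48 and 4.25 CPM in Ctrl 1 and Ctrl 2, 0.176 and 0.263 in Ctrl 3 and Ctrl 4, at or under the floor of 3 counts, and 2.23 to 4.52 in KO.

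The other 3 neighbours of *Sik1* were even. *U2af1*, a splicing factor that recognises the 3′ splice site, was 26.1 to 33.4 CPM in Ctrl and 30.4 to 33.5 in KO (0.07 ± 0.10, 95% interval -0.15 to 0.28). *Rrp1b*, a nucleolar protein, was 5.90 to 7.01 CPM in Ctrl and 5.47 to 7.36 in KO (-0.04 ± 0.15). *Notch3*, the Notch receptor of vascular smooth muscle and pericytes, was 5.63 to 13.2 CPM in Ctrl and 5.42 to 12.4 in KO (-0.005 ± 0.304). Over all 18 neighbours, 10 estimates were positive and 8 negative. By edgeR on 8 kidneys 0 reached an unadjusted p under 0.05 (background 6.36%). On 6 kidneys 2 of the 18 did, *Hsf2bp* and *Fdx1*, both lower in KO, where 11.1% of all 14719 genes tested passed. The 95% interval lay within 2-fold for 14 of the 18 and within 1.5-fold for 10.

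**Figure D3:**
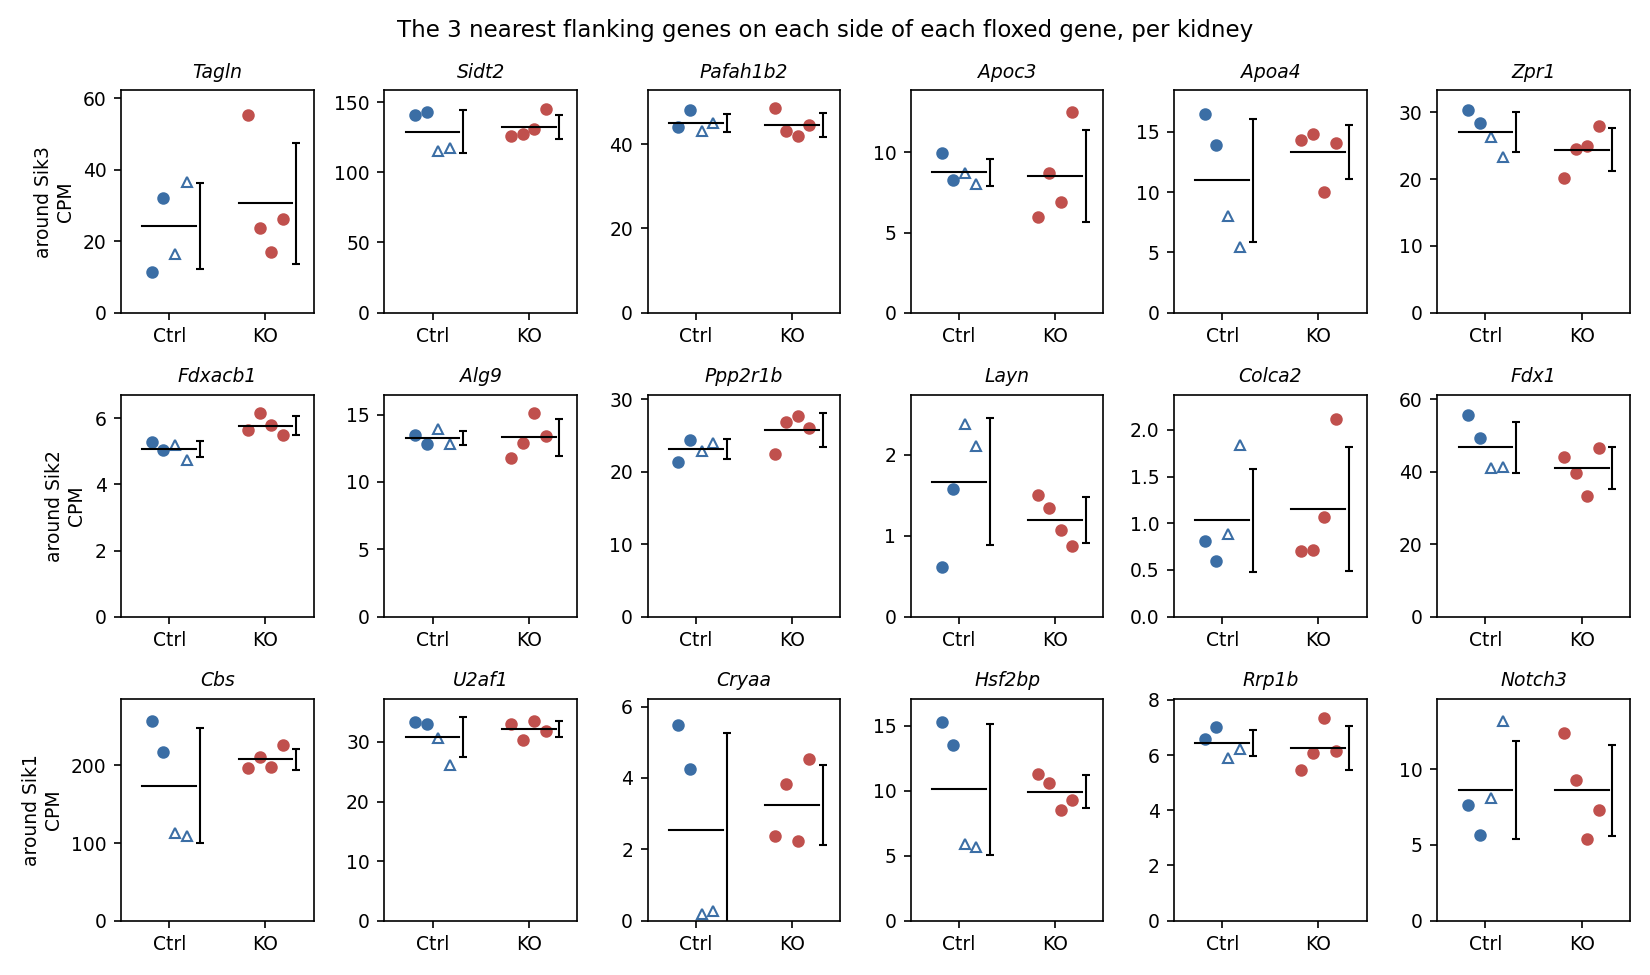
CPM in each kidney of the 3 nearest flanking genes on each side of *Sik3* (top row), *Sik2* (middle) and *Sik1* (bottom), with Ctrl in blue and KO in red. Horizontal lines are group means, vertical bars SD (n = 4), and open triangles the 2 Ctrl kidneys without Y-linked reads. These 2 kidneys lie below all others for *Cbs*, *Cryaa*, *Hsf2bp*, *Apoa4* and *Sidt2*, and above all others for *Layn*.

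The flanking genes with the lowest p lay farther out. *Atm*, the kinase that signals DNA double-strand breaks, lies 2.55 Mb from *Sik2* (chr9:53439149-53536740, minus strand) and was 3.76, 3.56, 5.20 and 4.47 CPM in Ctrl and 5.21, 12.0, 8.04 and 5.39 in KO. All KO kidneys lay above all Ctrl kidneys, although KO 1 and Ctrl 3 all but touched (log2 fold change 0.85 ± 0.28, 95% interval 0.21 to 1.48, unadjusted p = 0.0143, FDR 0.702). Without KO 2 the estimate was 0.55. *Npat*, a coactivator of histone genes, is transcribed away from *Atm* from a start 307 bases beyond that of *Atm* in GENCODE, and was 8.22 to 9.09 CPM in Ctrl and 7.89 to 11.3 in KO, with overlap (0.16 ± 0.14, unadjusted p = 0.294). The RefSeq start-site windows of the pair (GRCm38.p6, 250 bases before the start to 50 after it) are shown because they overlap. The windows are chr9:53536622-53536921 on the minus strand for *Atm* and chr9:53536797-53537096 on the plus strand for *Npat*, and capitals mark the 125 bases (chr9:53536797-53536921) that lie in both, read on opposite strands.
Atm: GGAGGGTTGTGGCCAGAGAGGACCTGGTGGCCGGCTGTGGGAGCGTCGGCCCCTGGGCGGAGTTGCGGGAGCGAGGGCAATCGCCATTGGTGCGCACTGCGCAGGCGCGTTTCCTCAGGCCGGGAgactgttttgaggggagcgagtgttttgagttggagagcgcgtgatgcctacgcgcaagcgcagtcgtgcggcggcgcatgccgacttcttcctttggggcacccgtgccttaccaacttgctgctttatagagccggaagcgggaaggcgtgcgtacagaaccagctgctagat
Npat: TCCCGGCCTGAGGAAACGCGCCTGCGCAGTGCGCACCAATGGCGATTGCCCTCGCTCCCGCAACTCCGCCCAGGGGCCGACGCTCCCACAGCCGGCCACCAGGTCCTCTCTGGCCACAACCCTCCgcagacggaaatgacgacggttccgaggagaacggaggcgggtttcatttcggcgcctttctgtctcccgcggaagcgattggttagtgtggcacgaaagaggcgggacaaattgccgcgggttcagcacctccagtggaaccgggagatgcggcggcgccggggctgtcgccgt

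*Fkbp5*, a co-chaperone of the glucocorticoid receptor whose transcription glucocorticoids induce, lies 3.45 Mb from *Sik1* (chr17:28399094-28517527, minus strand) and was 40.3, 40.5, 25.5 and 15.6 CPM in Ctrl and 39.5, 58.3, 54 and 61.7 in KO. KO 1 lay below Ctrl 1 and Ctrl 2, and the lowest values were in Ctrl 3 and Ctrl 4 (0.81 ± 0.28, unadjusted p = 0.0161, FDR 0.702). On the 6 kidneys with Y-linked reads the estimate was 0.41 ± 0.17 (unadjusted p = 0.0355, FDR 0.409). *Pi16*, a peptidase inhibitor made by fibroblasts, was 1.42, 2.37, 5.11 and 3.24 CPM in Ctrl and 6.53, 4.64, 3.58 and 10 in KO. The groups overlapped, as Ctrl 3 lay above both KO 2 and KO 3 (1.01 ± 0.41, unadjusted p = 0.035, FDR 0.757).

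*Cadm1*, an adhesion molecule of the immunoglobulin superfamily, was the only one of the 4 for which *Sik3* was the nearest floxed gene, at 1.52 Mb. It was 6.90, 7.90, 5.20 and 4.47 CPM in Ctrl and 7.06, 9.63, 16.6 and 6.73 in KO, and KO 3 alone lay above 10 CPM (0.71 ± 0.31, unadjusted p = 0.0457, FDR 0.775). Without KO 3 the estimate was 0.36, and on the 6 kidneys it was 0.44 ± 0.36. Each of the 4 genes also had an overlapping or nearly touching pair of kidneys between the groups, as the plot of CPM per kidney shows.

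The next lowest p on chromosome 9 were those of *Ube4a*, *Bco2*, *Rpl10-ps3* and *Exph5*. *Ube4a*, a ubiquitin ligase of the U-box type, was 58.5 to 66.8 CPM in Ctrl and 63.9 to 87.4 in KO (0.24 ± 0.11). *Bco2*, a mitochondrial enzyme that cleaves carotenoids, was 13.6, 13.5, 11.4 and 8.58 CPM in Ctrl and 6.97, 8.29, 9.01 and 11.2 in KO (-0.41 ± 0.19). *Rpl10-ps3*, annotated as protein coding although its symbol is that of a ribosomal protein pseudogene, was 29.2 to 35.9 CPM in Ctrl and 24.2 to 30.2 in KO (-0.22 ± 0.10), and reads may be shared with its parent gene. *Exph5*, a Rab27 effector, was 2.33 to 4.90 CPM in Ctrl and 3.56 to 9.10 in KO (0.57 ± 0.33).

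On chromosome 17 the genes after *Fkbp5* and *Pi16* were *Slc37a1*, *Zfp101*, *Srpk1* and *Zfp952*. *Slc37a1*, of the sugar phosphate transporter family, was 2.84 to 4.64 CPM in Ctrl and 2.23 to 3.68 in KO (-0.47 ± 0.23). *Srpk1*, a kinase of splicing factors, was 70.5, 63.0, 48.7 and 47.5 CPM in Ctrl and 65.7, 66.3, 72.5 and 66.2 in KO, again with the low values in the Ctrl kidneys without Y-linked reads (0.24 ± 0.13 on 8 kidneys and 0.03 ± 0.09 on 6). *Zfp101* was 7.53 to 11 CPM in Ctrl and 10.5 to 12.0 in KO (0.27 ± 0.14). *Zfp952* was 5.68 to 7.80 CPM in Ctrl and 4.81 to 6.49 in KO (-0.29 ± 0.16). All of these groups overlapped, and the FDR of these 8 genes lay between 0.781 and 0.808.

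*Pts*, singled out after the values were seen because its groups did not overlap, makes the tetrahydrobiopterin precursor. It was 34.3, 35.5, 34.4 and 37.2 CPM in Ctrl and 32.4, 31.0, 34 and 32.5 in KO, a tight difference (-0.12 ± 0.07, two-sided exact permutation p = 0.0286, FDR 0.812). It lies 0.37 Mb from *Sik2*.

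A part of the spread among kidneys went with the presence of Y-linked reads. The 2 Ctrl kidneys without such reads did not overlap with the other 6 kidneys for 35 of the 152 flanking genes (23.0%; background 23.8%, other genes of these chromosomes 25%). This comparison was added after the values were seen, and the shares are close to each other. Of the 35, 24 were higher with Y-linked reads and 11 lower. Of the 14326 genes tested, 3409 split in this way, 1873 higher (13.1% of those tested) and 1536 lower (10.7%). *Treh*, the brush-border enzyme trehalase, was 36.5 and 36.7 CPM in Ctrl 3 and Ctrl 4, 141 and 111 in Ctrl 1 and Ctrl 2 and 77.6 to 103 in KO. *Acat1*, a mitochondrial acetyl-CoA acetyltransferase of ketone body and isoleucine breakdown, was 335 and 294 CPM in Ctrl 3 and Ctrl 4, 787 and 602 in Ctrl 1 and Ctrl 2 and 428 to 654 in KO. In both genes the KO kidneys lay between the 2 pairs of Ctrl kidneys, apart from KO 4 for *Acat1*, which lay above Ctrl 2. In the opposite direction, *Mpzl2*, an epithelial adhesion protein, was 24.4 and 22.9 CPM in Ctrl 3 and Ctrl 4, 11.1 and 13.4 in Ctrl 1 and Ctrl 2 and 14.8 to 19.9 in KO. With 2 kidneys without Y-linked reads, all of them Ctrl, other differences between these 2 kidneys and the rest cannot be told apart from it.

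**Figure D4:**
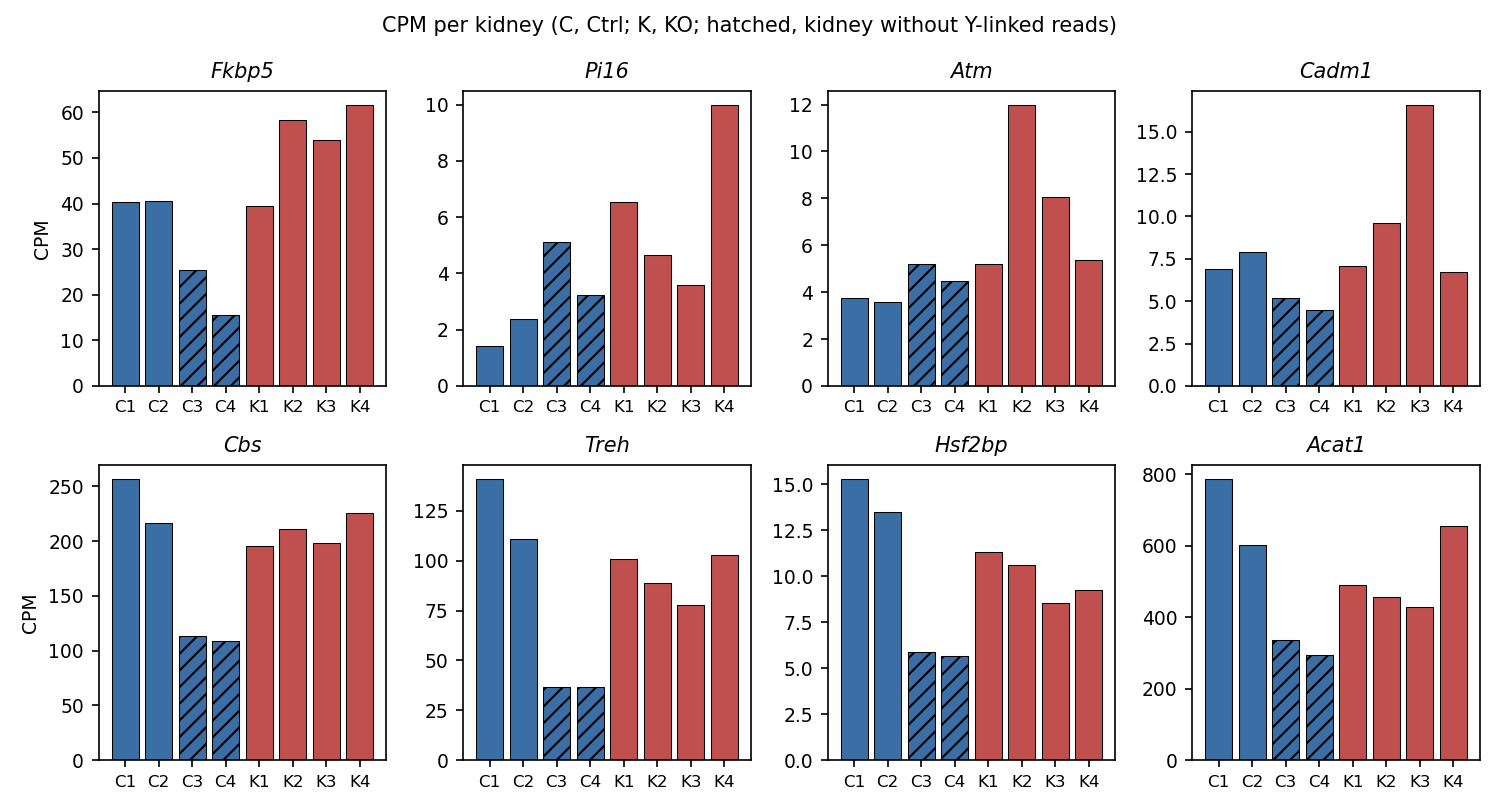
CPM per kidney, as bars from 0, of the 4 flanking genes with an unadjusted p under 0.05 (top row) and of 4 flanking genes whose 2 Ctrl kidneys without Y-linked reads (hatched) lie below all others (bottom row). C1 to C4 are Ctrl (blue) and K1 to K4 KO (red). In the bottom row the Ctrl kidneys form 2 pairs, for example 257 and 217 against 113 and 109 CPM for *Cbs*.

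On the 6 kidneys with Y-linked reads, 2 Ctrl and 4 KO, 18 flanking genes had an unadjusted p under 0.05 in edgeR (11.8%; background 11.1% of 14719 genes), 9 higher (background 6.4%) and 9 lower in KO (background 4.74%). They made up 15.7% of the flanking genes of chromosome 9, beside 13.5% of the other genes of that chromosome, and 6.35% of those of chromosome 17, beside 13.0%. In these kidneys proximal tubule, adipocyte and collecting duct markers also separated by genotype, and their part in the differences was not tested. None passed an FDR of 0.05 in edgeR (background 0.143%, lowest FDR among flanking genes 0.191), while DESeq2 called 2 (background 1.19% of 15558 genes). Of the 4 genes that passed the unadjusted level on 8 kidneys, 3 also did so on 6, all in the same direction, and the estimates of 50 flanking genes changed sign between the fits, which share 6 kidneys.

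The 2 genes called by DESeq2 on the 6 kidneys were *Slc37a4* and *Pi16*. *Slc37a4*, the glucose-6-phosphate transporter of the endoplasmic reticulum, needed for glucose release by liver and kidney, was 300 and 303 CPM in Ctrl 1 and Ctrl 2, 217 and 184 in Ctrl 3 and Ctrl 4, and 211, 206, 200 and 246 in KO. All KO kidneys lay below Ctrl 1 and Ctrl 2 and 3 of the 4 between the values of Ctrl 3 and Ctrl 4, so that the log2 fold change was -0.48 ± 0.12 in DESeq2 on 6 kidneys (FDR 0.0108), -0.47 ± 0.10 in edgeR on the same kidneys (FDR 0.191) and -0.22 ± 0.17 on all 8 (FDR 0.888). For *Pi16* the DESeq2 estimate on 6 kidneys was 1.71 ± 0.46 (FDR 0.0259), with edgeR at 1.71 ± 0.46 (FDR 0.278). *Bace1*, the beta-secretase of amyloid precursor protein, lies 0.17 Mb from *Sik3* and had the lowest p after *Slc37a4* in edgeR on these kidneys. It was 32.3 and 28.7 CPM in Ctrl 1 and Ctrl 2, 42.2 and 40.9 in Ctrl 3 and Ctrl 4 and 38.4 to 41.9 in KO (0.43 ± 0.10 on 6 kidneys, FDR 0.20, and 0.18 ± 0.13 on 8).

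By function, no list of flanking genes held a member past an FDR of 0.05 in edgeR on 8 kidneys. Of 19 mitochondrial and metabolic enzymes, 11 estimates were positive and 8 negative, with 0 at an unadjusted p under 0.05 in either direction and a median of 0.00. The most abundant per length was *Ttc36* (813 TPM, a level scaled to gene length and library total), also the highest of all flanking genes, at 346 to 706 CPM in Ctrl and 451 to 628 in KO (-0.05 ± 0.22). On the 6 kidneys the median of this list was -0.18, with 6 of 19 lower at an unadjusted p under 0.05 (*Slc37a4*, *Bco2*, *Treh*, *Fdx1*, *Acat1* and *Ttc36*) and 0 higher, a pattern noted after the values were seen. Of all genes tested there, 4.74% were lower at that level. Summed proximal tubule markers were also lower in KO in these kidneys (8240 and 8820 CPM in Ctrl, 5750 to 6920 in KO), and their part in these values was not tested. In 8 of the 19 the kidneys without Y-linked reads did not overlap with the others, beside 23.0% of all flanking genes and 23.8% of all genes tested.

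Of 7 genes of apolipoprotein and lipid handling, 5 were positive and 2 negative (median 0.03, range -0.04 to 0.28). They include *Ppard*, a fatty acid-sensing nuclear receptor, which varied widely within each group (43.9 to 138 CPM in Ctrl, 47.1 to 115 in KO). Of 3 genes responsive to glucocorticoids or fasting, *Fkbp5* alone passed the unadjusted level, while *Pim1* was at 0.12 ± 0.16 and *Usp2* at -0.09 ± 0.25. Of 10 chromatin and transcription genes, 6 were positive and 4 negative (median 0.04), *Atm* being the only one at an unadjusted p under 0.05. *Kmt2a*, a histone H3 lysine methyltransferase, was 22.0 to 39.0 CPM in Ctrl and 23.7 to 36.3 in KO (0.06 ± 0.19).

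Of 13 zinc-finger genes, most of them in a cluster on chromosome 17, 4 were positive and 9 negative (median -0.12, range -0.33 to 0.32), and 0 passed the unadjusted level. *Zfp871*, the most abundant in CPM, was 67.2 to 88.2 CPM in Ctrl and 60.0 to 73.4 in KO (-0.12 ± 0.11). Of 9 genes of RNA processing and the ribosome, 4 were positive and 5 negative (median -0.01), and *Rps25*, a protein of the small ribosomal subunit, was 152 to 167 CPM in Ctrl and 145 to 161 in KO (-0.06 ± 0.08). Of 5 kinases, 4 were positive and 1 negative (median 0.05), with *Mapk14*, the p38 alpha stress kinase, at 79.7 to 101 CPM in Ctrl and 88.6 to 117 in KO (0.05 ± 0.12).

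The lists for other cell types were short. Of 5 immune genes, 4 were positive and 1 negative (median 0.06), and *Fgd2*, an exchange factor of antigen-presenting cells, was 2.96 to 4.55 CPM in Ctrl and 2.81 to 4.37 in KO. Summed immune markers were 4.23 to 7.35 CPM in Ctrl and 4.81 to 7.31 in KO. Of 3 smooth muscle and pericyte genes, 2 were positive and 1 negative (median 0.34). *Mcam* was at 0.42 ± 0.26 and was highest, like *Tagln*, in KO 1 (18.4 CPM), while *Notch3* was highest in Ctrl 4 (13.2 CPM). Of 3 small heat shock protein genes, *Cryab*, a chaperone abundant in kidney medulla, was 75.9, 73.7, 140 and 101 CPM in Ctrl and 53.9, 70.3, 182 and 85.9 in KO, the largest value being in KO 3 (0.003 ± 0.362).

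Among flanking genes with a mean of at least 5 CPM, the 3 with the largest spread around the group means in each interval had overlapping groups. Under that mean, *Upk2* on chromosome 9 and *Cryaa* on chromosome 17 were more variable than all 3 genes of their interval, and *Pi16* and *Rasal3* on chromosome 17 more variable than 2 of the 3. On chromosome 9 the 3 genes were *Plet1*, *Tagln* and *Treh*. *Plet1*, a surface protein of epithelial progenitors, was 33.8 to 68.3 CPM in Ctrl and 32.7, 51.5, 162 and 73.1 in KO (0.74 ± 0.44), the highest in KO 3, which also held the highest *Cryab* and the highest level of the collecting duct marker *Aqp2* (563 CPM, against 163 to 437 in the other kidneys). The part of tissue composition in these values was not tested. On chromosome 17 the 3 genes were *Scube3*, a secreted signalling protein (3.85 to 10.7 CPM in Ctrl, 5.77 to 9.09 in KO), *Ppard* and *Hsf2bp*.

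Among the flanking genes, 10 pairs are transcribed away from each other from starts at most 1000 bases apart, counted after the values were seen. The estimates had the same sign in 7 pairs and opposite signs in 3. In *Arcn1* and *Ift46*, with starts 63 bases apart, they were 0.13 and 0.05, and in *Bco2* and *Il18*, whose annotated spans overlap, -0.41 and 0.17. *Atm* and *Npat* differed most in size among pairs of the same sign, at 0.85 and 0.16. Where the transcribed regions of a pair overlap, reads cannot be told apart without strand.

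RefSeq start-site windows on the matching strand were found for 114 of the 152 flanking genes. Because SIKs act on coactivators of the factor CREB, the windows were searched on both strands for the CREB half-site TGACG and for the full palindromic CREB site, which contains the half-site. The half-site was present in 39 windows (34.2%), beside 35.1% of the windows of 1031 matched other genes of chromosomes 9 and 17 and 20.8% of all 32851 windows in the table, which include genes of any class. The full site was present in 2 (1.8%), beside 3.5% and 1.8%. A match of letters is a description and no site of binding. The *Npat* window above holds 1 half-site and the *Atm* window 0.

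A few counts were uncertain by construction. The posterior SD that RSEM attached to the counts was over 5% of the count in some kidney for 3 flanking genes. These were *Gm28043*, which overlaps *Rnf8* and *Ccdc167* (up to 30.6%), *Mfrp* (28.8%) and *C1qtnf5* (6.31%), the latter 2 sharing an end on the same strand. None of these reached an unadjusted p under 0.05, with estimates of 0.23 ± 0.28, -0.42 ± 0.46 and -0.16 ± 0.30.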

How the data were processed

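Whole-kidney RNA of 8 mice was sequenced on the BGISEQ500 platform, and the authors deposited a gene table per kidney. Per the submitters' processing notes, FastQC, STAR 2.7.2b, RSEM 1.3.0 and DESeq2 were named, with genome build mm10. The deposited expected counts are RSEM's estimated reads per gene, not normalised, and the deposited TPM values are scaled to gene length and library total by RSEM. The authors also deposited RSEM's posterior standard deviation of each count, another value, used here to mark uncertain genes. RSEM shares reads that match several genes among them, so genes with near-identical copies or overlapping ends are less certain. Use of strand is not given in the sources used here.

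The sample titles gave group and replicate number. Gene IDs were matched, without version, to GENCODE M21 (GRCm38, the mm10 sequence), which held 55141 of 55401. Of the flanking genes, 145 of 152 also matched with version. Expected counts were rounded and tested with edgeR 4.0.16 (R 4.3.3; quasi-likelihood F test, TMM factors, filterByExpr), Ctrl against KO with no covariate, and FDR values are Benjamini-Hochberg over all 14326 genes tested. All 152 flanking genes passed the filter, which adds to their mean minimum of 10 counts. CPM were computed with the TMM factors, and single differences in mean CPM were tested by a two-sided exact permutation test over 70 assignments, whose smallest p is 0.0286. P-values measure the spread between these samples. Kidneys with Y-linked reads were identified from *Ddx3y*, *Eif2s3y*, *Kdm5d* and *Uty*. Of the fits, only the main edgeR fit was tested on simulated data.

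Genes are named by rule: the 3 nearest on each side of each *Sik* gene, the 6 lowest p and 3 largest spreads per interval (mean of at least 5 CPM), and examples from function lists (the most abundant in CPM, or those named already). *Pts*, *Npat*, *Slc37a4*, *Bace1* and other genes named beside a count were added once their values had been seen, as were the comparison by Y-linked reads, the pairs of starts, the motif search and the use of 1 example per list. The values of 1 list example are not reported here. The members, the lists and the tests were chosen with earlier results of these data known. Alternatives were RLE and upper-quartile factors, DESeq2 1.42.0, limma 3.58.1 (voom, and trend on log2(TPM + 1) and log2(TPM + 0.1)), other filters, the replicate number as a block, a Y-linked covariate, the 6 kidneys with Y-linked reads, narrower member sets and leaving out each kidney. DESeq2 on the 6 kidneys was added after seeing the data.

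Depth was 10179648 to 10925100 expected counts, and the floor of 3 counts was 0.275 to 0.295 CPM. Without molecular identifiers, this floor covers counting error only.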

Additional observations from a re-analysis of the deposited data

Results flagged for a closer look

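In 98 groups of 4 kidneys (49 named genes, 2 groups each), 5 had a kidney whose gap to the nearest other kidney, as a share of the range of its group, was above Dixon's 95% critical value. Chance alone flags about 1 in 20 groups, which is 4.9 here. All 5 were KO kidneys. In KO 3, *Apoa4* was 9.98 CPM where the other KO kidneys held 14.1 to 14.8, and *Srpk1* was 72.5 CPM where they held 65.7 to 66.3. In KO 4, *Ttc36* was 628 CPM beside 451 to 471 in the others, *Usp2* was 91.7 CPM beside 49.8 to 54.1, and *Zfp871* was 60.0 CPM beside 71.1 to 73.4. *Usp2* was also high in Ctrl 1, at 96.6 CPM.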

How the results depend on the processing

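Among 14326 genes 0 passed an FDR of 0.05 by edgeR, with 911 at an unadjusted p under 0.05, and this count was 71 with DESeq2, 2 with limma-voom, 4 and 5 in the limma-trend fits of log2(TPM + 1) and log2(TPM + 0.1), 9 without a filter, 15 with the Y-linked covariate, 21 on the 6 kidneys that hold Y-linked reads and 185 in DESeq2 on those 6. It was 0 to 1 with a kidney left out (1 without Ctrl 2, Ctrl 3 or KO 1). Calls among the flanking genes stayed at 0 under every alternative tried but DESeq2 on the 6 kidneys, which called 2. Flanking genes higher at an unadjusted p under 0.05 numbered 4, and 9 with either limma-trend fit, 8 with the Y-linked covariate, 9 on the 6 kidneys by edgeR and 9 by DESeq2, 1 among members with a mean of at least 100 counts, 0 among those within 1 Mb and 2 to 6 with a kidney left out (2 without Ctrl 4). Those lower numbered 0, and 1 with upper-quartile factors or without a filter, 9 with the covariate, 9 and 9 on the 6 kidneys, and 0 to 3 with a kidney left out (0 without KO 2). For edgeR on the 6 kidneys the shares over all genes were 6.4% higher and 4.74% lower. For the other fits listed here no such share is given, so these shifts cannot be called particular to the flanking genes. The median log2 fold change on chromosome 9 was 0.001, and 0.082 and 0.095 with the TPM fits, -0.052 with the covariate, -0.038 on the 6 kidneys and -0.043 with DESeq2 there. On chromosome 17 it was 0.013, and 0.12 and 0.147 with the TPM fits. Those TPM fits moved the median of all genes tested from -0.004 to 0.088 and 0.106. Groups did not overlap for 3 flanking genes, for 7 in TPM (4.61%, all genes 5.1%), 24 on the 6 kidneys (15.8%, all genes 21.8%), 1 among members with a mean of at least 100 counts (0.962%, all such genes 4.1%) and 4 to 12 with a kidney left out. These were 12 without Ctrl 1 (7.89%, all genes 8.03%) or without KO 1 (7.89%, all genes 7.51%), and 5 without Ctrl 2, Ctrl 3 or KO 4 (3.29%, all genes 6.5% to 8.57%). Where not stated, the cause of a shift was not tested. Correlations of same-numbered Ctrl and KO deviations from the group means were -0.156, 0.053, 0.043 and -0.288. With 4 kidneys per group, they cannot tell whether the replicate numbers pair littermates. With the replicate block, flanking genes higher at an unadjusted p under 0.05 numbered 2, with no share over all genes given for that fit, and calls stayed at 0.

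Of 973 values for 49 named genes under 20 alternatives, 850 kept direction and side of the threshold, 4 passed it (*Sik3* in both DESeq2 fits, *Pi16* and *Slc37a4*) and 119 changed sign, none of them past the threshold, while 24 genes never changed sign. With the Y-linked covariate the log2 fold changes that changed sign were *Cryaa* -0.639, *U2af1* -0.044, *Cbs* -0.203, *Notch3* 0.377, *Layn* 0.141, *Sidt2* -0.102, *Apoa4* -0.208, *Treh* -0.471, *Ppard* -0.276, *Scube3* 0.692, *Acat1* -0.457, *Zfp871* 0.011, *Mapk14* -0.009. On the 6 kidneys they were *Cryaa* -0.575, *U2af1* -0.034, *Cbs* -0.18, *Notch3* 0.395, *Layn* 0.132, *Sidt2* -0.091, *Apoa4* -0.184, *Treh* -0.44, *Ppard* -0.234, *Scube3* 0.694, *Acat1* -0.442, *Zfp871* 0.024, *Mapk14* -0.002. With DESeq2 on these they were *Cryaa* -0.582, *U2af1* -0.039, *Cbs* -0.185, *Notch3* 0.387, *Layn* 0.129, *Sidt2* -0.096, *Apoa4* -0.19, *Treh* -0.445, *Ppard* -0.238, *Scube3* 0.69, *Acat1* -0.447, *Zfp871* 0.019, *Mapk14* -0.007. With log2(TPM + 1) they were *Hsf2bp* 0.197, *Rrp1b* 0.017, *Notch3* 0.085, *Pafah1b2* 0.036, *Apoc3* 0.054, *Scube3* 0.072, *Ttc36* 0.098, *Usp2* 0.199, *Rps25* 0.068. With log2(TPM + 0.1) they were *Hsf2bp* 0.228, *Rrp1b* 0.028, *Notch3* 0.133, *Pafah1b2* 0.039, *Apoc3* 0.054, *Scube3* 0.163, *Ttc36* 0.098, *Usp2* 0.204, *Rps25* 0.068. With limma-voom they were *Hsf2bp* 0.151, *Alg9* -0.003, *Scube3* 0.044, *Cryab* -0.102. With the replicate block they were *Hsf2bp* 0.087, *Scube3* 0.049, *Cryab* -0.103. With upper-quartile factors they were *Alg9* -0.009, *Cryab* -0.025. With a mean of at least 50 counts it was *Cryab* -0.005. With RLE factors it was *Notch3* 0.001. With DESeq2 it was *Notch3* 0.004. With a kidney left out, the genes that changed sign ranged as follows: *Cryaa* -0.023 to 1.086, *U2af1* -0.005 to 0.108, *Hsf2bp* -0.218 to 0.251, *Rrp1b* -0.124 to 0.022, *Notch3* -0.237 to 0.276, *Alg9* -0.061 to 0.058, *Colca2* -0.051 to 0.31, *Pafah1b2* -0.062 to 0.014, *Sidt2* -0.015 to 0.087, *Tagln* -0.114 to 0.614, *Apoc3* -0.28 to 0.1, *Treh* -0.06 to 0.59, *Ppard* -0.093 to 0.494, *Scube3* -0.238 to 0.23, *Acat1* -0.178 to 0.307, *Ttc36* -0.197 to 0.139, *Usp2* -0.336 to 0.146, *Fgd2* -0.077 to 0.155, *Cryab* -0.481 to 0.228, *Mapk14* -0.054 to 0.091.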
